A study of Mus musculus with 6 samples.

Results

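Collecting lymphatic endothelial cells (Lymph-Col) of mouse back skin were taken as the endothelial cells (ECs) that had transcripts of at least 2 of 5 marker genes, *Nts*, *Cldn11*, *Nsg1*, *Cd24a* and *Gdf15*, and of more of them than of the markers of any other vessel class. Cells entered this choice when they had 200 to 5000 detected genes, under 10% mitochondrial transcripts, at least 1 *Pecam1* transcript and no *Ptprc* transcript. The 5 other sets, also of 5 genes each, marked arterial, venous and 2 further blood EC classes and the capillary lymphatic ECs (Lymph-Cap: *Lyve1*, *Mmrn1*, *Reln*, *Flt4* and *Fndc1*). The rule found 1565 Lymph-Col cells among 12093 such ECs, 20941 filtered cells and 27418 barcodes. Lymph-Cap cells by the same rule numbered 922, and 7109 ECs fell to a blood set.

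The cells came from 6 mice, with 1 droplet single-cell RNA-seq library each. Of these, 2 were wild type (WT) in telogen, the resting stage of the hair cycle, at postnatal day (PD) 20, and 2 were WT in anagen, the growing stage, at PD 32. Both WT groups carried a tdTomato reporter, Cdh5-CreERT2 and Krt14-H2BGFP on a C57BL/6;CD1 background. The Alk1 KO mice were at PD 25, also in telogen, and carried Alk1 flox/flox, the tdTomato reporter and Cdh5-CreERT2 on C57BL/6, with no Krt14-H2BGFP named. All 6 received tamoxifen at PD 17, at 200 µg per g of body weight. Cdh5 drives the recombinase in ECs of every vessel type, so the deletion is not limited to lymphatic cells, and only tdTomato+ cells were sorted. The title and description of the KO libraries name the Alk1 deletion while their genotype field reads wild type; they are called KO libraries here after the titles. The KO therefore differs from WT telogen in strain background, age, 1 transgene and the floxed alleles at once. The paper also draws the KO data from an earlier data set. These cannot be told apart. Sex differs in part too, as given below.

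Telogen S1 and S2 gave 271 and 294 Lymph-Col cells, anagen S1 and S2 gave 415 and 290, and KO S1 and S2 gave 122 and 173. Their transcripts, counted as unique molecular identifiers (UMIs), summed to 1707704 and 1622522 in telogen, 2576971 and 1279098 in anagen, and 719528 and 970048 in the KO libraries. Levels below are CPM, the UMIs of a gene summed over the Lymph-Col cells of a library and scaled to the same total in every library, so each library is 1 sample and n is 2 mice per group. The KO libraries thus rest on the fewest cells and UMIs. *Xist*, expressed from the inactive X chromosome of females, was at 1524, 1074 and 1003 CPM in Lymph-Col cells of telogen S1, KO S1 and KO S2 and at 0 in the other 3 libraries, whereas the Y-linked *Ddx3y* was at 0 in those 3 and at 126, 105 and 96.9 CPM in telogen S2 and both anagen libraries. Telogen thus held 1 female and 1 male, anagen 2 males and the KO 2 females. A fit of all 6 libraries with sex as a term was added after the data were seen. In it anagen rests on telogen S2 and the KO on telogen S1, the only telogen mouse of the same sex, and its results stand beside the counts below. Without telogen S1 the anagen comparison holds males only, and without telogen S2 the KO comparison holds females only. Between any 2 libraries, 2 to 13 of the deposited barcodes, before the cell filters, were shared. Over all pairs, 1 barcode of a Lymph-Col cell was shared.

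Lymph enters blind-ended capillaries, whose ECs express LYVE1 and CCL21 and are joined by button-like junctions, and drains into collecting vessels, which have continuous zipper-like junctions, a basement membrane, muscle cells and valves. PROX1 is the transcription factor that maintains lymphatic identity, and FOXC2, GATA2 and integrin α9 are needed for valves. In skin, lymphatic vessels run close to the hair follicles. ALK1, encoded by *Acvrl1*, is the EC receptor for BMP9 and BMP10 and signals through SMADs to targets such as the *Id* genes, *Smad6* and *Smad7*.

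Among the 5 markers, *Nts* (neurotensin, a secreted peptide) and *Cldn11* (claudin 11, a tight-junction protein) had the lowest shares of positive cells among blood ECs, and their promoters are shown for that reason. Both are from RefSeq on GRCm38.p6, from 250 bases before to 50 bases after the start site, printed in the direction of the gene. *Nts* is on the minus strand at chr10:102481756-102490486 and the window is chr10:102490369-102490668; *Cldn11* is on the plus strand at chr3:31149920-31164324 and the window is chr3:31149670-31149969. Capitals mark matches on either strand to 5 motifs, none of which overlaps another here. TGANTCA stood for AP-1 factors. Sites of cyclic AMP response (CRE) were searched as TGACGTCA. For forkhead (FOX) factors the letters were TGTTTAC. KLF factors were given CCACCC, and GATA factors AGATAA.
Nts: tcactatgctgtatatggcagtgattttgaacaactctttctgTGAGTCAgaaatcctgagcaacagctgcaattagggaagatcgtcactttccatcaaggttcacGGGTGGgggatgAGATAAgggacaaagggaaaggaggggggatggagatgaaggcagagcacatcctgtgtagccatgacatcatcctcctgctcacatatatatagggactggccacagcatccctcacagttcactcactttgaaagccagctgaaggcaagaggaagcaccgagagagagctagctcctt
Cldn11: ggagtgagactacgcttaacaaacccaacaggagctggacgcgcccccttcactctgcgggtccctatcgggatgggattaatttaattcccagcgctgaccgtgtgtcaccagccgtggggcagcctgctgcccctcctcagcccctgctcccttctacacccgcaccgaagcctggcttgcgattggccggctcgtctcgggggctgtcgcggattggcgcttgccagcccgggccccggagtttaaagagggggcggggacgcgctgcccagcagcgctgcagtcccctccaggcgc
The *Nts* window holds an AP-1 match at -207, a KLF match on the other strand at -143 and a GATA match at -131 relative to the start site. The *Cldn11* window holds none of the 5 motifs. Of 32851 promoter windows of this length, 7.81% hold the AP-1, 1.79% the CRE, 3.65% the FOX, 31.5% the KLF and 11.2% the GATA motif. These matches are letters in a window and no binding was measured.

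The levels of the 5 genes chose the cells and are given as a description. *Nts* was at 2592 and 4579.9 CPM in telogen, 3557 and 3590.03 CPM in anagen and 1894 and 2546 CPM in the KO libraries. *Cldn11* was at 703 and 578 CPM in telogen, 534 and 603 CPM in anagen and 429 and 319.6 CPM in the KO libraries. Both genes were lower in the 2 KO libraries than in any WT library, and neither separated the stages. *Gdf15* was at 1822 and 2509.7 CPM in telogen, 4960.1 and 4073 CPM in anagen and 2436 and 1544 CPM in the KO libraries, and this stress-induced TGF-β family cytokine was highest in both anagen libraries. *Nsg1*, a neuronal vesicle protein, lay between 828 and 1031 CPM, and *Cd24a*, a glycosylated surface antigen, between 947 and 1329 CPM over the 6 libraries. In the ratio of the highest to the lowest library, these were the steadiest of the set.

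**Figure D1:**
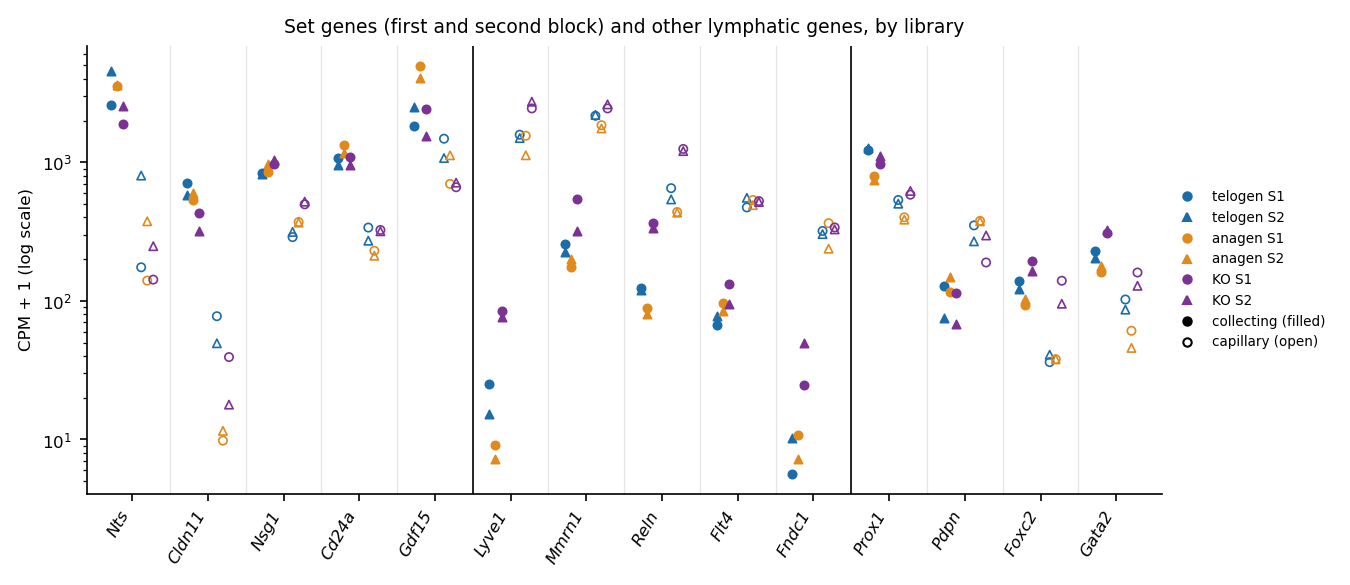
Levels of marker genes in CPM, on a logarithmic axis after adding 1, with 1 point per library for Lymph-Col (filled) and Lymph-Cap (open) cells; circles are S1 and triangles S2. The 5 collecting genes lie higher in Lymph-Col cells, as the rule requires, and *Lyve1* lies between 6.25 and 83.4 CPM there against 1122 to 2735 CPM in Lymph-Cap cells.

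Shares of cells with a transcript were compared after each cell was thinned to 1500 UMIs. *Nts* was found in 49.4% of Lymph-Col, 10.8% of Lymph-Cap and 0.663% of blood EC cells, and in 0.765% of Ptprc+ cells, which should lack it. *Cldn11* was found in 51.1% of Lymph-Col and 4.22% of Lymph-Cap cells, against 0.606% of Ptprc+ cells. *Nsg1* was shared more widely, at 69.7% of Lymph-Col and 39.04% of Lymph-Cap cells against 0.765% of Ptprc+ cells. *Gdf15* and *Cd24a* were the least restricted: 11.5% and 8.48% of blood ECs and 10.2% and 4.91% of Ptprc+ cells held a transcript. Before thinning, the median depth was 4786 UMIs in Lymph-Col, 5139.5 in Lymph-Cap, 5806 in blood EC and 11940 in Ptprc+ cells, and the Lymph-Col shares were 62.0% for *Nts*, 81.3% for *Cldn11*, 94.8% for *Nsg1*, 87.9% for *Cd24a* and 71.2% for *Gdf15*.

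All 5 markers were found together in 541 Lymph-Col cells (34.6%), 4 in 550, 3 in 364 and 2 in 110. The most frequent incomplete combinations lacked *Nts* (241 cells) or *Gdf15* (156 cells), or held only *Cldn11*, *Nsg1* and *Cd24a* (135 cells). Just inside the threshold, the 110 cells with 2 markers held *Prox1* in 75.5% and *Lyve1* in 0.909%, whereas *Prox1* was found in 92.98% of the cells with all 5. Just outside it, 25 cells had a single marker and none of another set, with *Prox1* in 24.0%, and 354 had 2 or more but tied with another set, with *Prox1* in 73.4% and *Lyve1* in 21.5%. Most tied cells thus held *Prox1*, and all were left out. Depth rose with the score, from a median of 3166 UMIs at 2 markers.

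The label was checked against genes that the rule did not use. *Prox1* was at 1218 and 1271 CPM in telogen, 797 and 739 CPM in anagen and 978 and 1106 CPM in the KO libraries, against 385 to 620.1 CPM in Lymph-Cap and 6.26 to 28.9 CPM in blood ECs. Every library of Lymph-Col cells was above every library of both other classes. *Pdpn*, encoding podoplanin, ran the other way, at 67.01 to 149 CPM in Lymph-Col and 188 to 377 CPM in Lymph-Cap cells. So did most pan-lymphatic genes: 8 of 11 measured were lower in Lymph-Col than in Lymph-Cap cells, with a median log2 difference of -0.72, among them the semaphorin and VEGF-C co-receptor *Nrp2* (-1.87). *Cdh5*, the EC cadherin, was at 281 to 361 CPM and was below the Lymph-Cap level of its own library in 6 of 6. *Foxc2* was at 137 and 120.2 CPM in telogen, 93.1 and 102 CPM in anagen and 193 and 164 CPM in the KO libraries, and *Gata2* was at 227 and 203 CPM in telogen, 161 and 177 CPM in anagen and 309.9 and 326 CPM in the KO libraries. Both valve factors were highest in the 2 KO libraries. *Nfatc1* was at 364 and 333 CPM in telogen, 333 and 214 CPM in anagen and 269.6 and 298 CPM in the KO libraries, with the KO libraries between the 2 anagen libraries. *Klf2* and *Klf4*, flow-responsive transcription factors, were at 1971 to 2689.6 CPM and 1932 to 2508 CPM, above the Lymph-Cap level of their own library in 6 of 6 libraries each. *Ly6c1*, *Ly6a*, *Vcam1* and *Jam2* were at most 47.7, 46.9, 30.6 and 10.9 CPM in any library. *Prox1* and the valve factors were thus present in every library.

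Transcripts of other cell types were present in the Lymph-Col sums and differed between libraries. The 7 fibroblast markers summed to 737 and 2134 CPM in telogen, 358 and 228 CPM in anagen and 2.78 and 15.5 CPM in the KO libraries, led by *Col3a1*. The 9 immune markers summed to 209.6 and 134 CPM in telogen, 67.5 and 17.98 CPM in anagen and 5.56 and 7.22 CPM in the KO libraries, led by *Cd74*, although *Ptprc* itself was 0 by the rule. Both sums were highest in the 2 telogen libraries and lowest in the KO libraries. The 8 blood endothelial markers, led by *Emcn*, went the other way and summed to 265 and 425 CPM in telogen, 531 and 652 CPM in anagen and 1035 and 710.3 CPM in the KO libraries, lowest in telogen and highest in the KO, against 7218 to 8268 CPM in blood ECs. Their part in the differences between groups was not tested. The 4 erythroid markers, led by *Hbb-bs*, summed to 2231 CPM in KO S2 and to at most 10.5 CPM in the others. The 8 pericyte and smooth muscle markers, led by *Rgs5*, reached 129 CPM in anagen S2 and 40.7 CPM at most elsewhere, and the 6 perineurial markers, led by *Sfrp5*, reached 213 CPM in telogen S2 and 40.6 CPM at most elsewhere. The 5 Schwann and the 5 keratinocyte markers summed to at most 3.1 and 8.93 CPM, with 1 and 2 of them at 0 in every library. No marker of the other 6 lists was at 0 in every library.

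Lymph-Col cells were set beside Lymph-Cap cells of the same library to describe what separates the 2 classes beyond the markers. Both classes were chosen on counts of these same cells, so the differences below are given as a description with no p-value, and the edgeR threshold served only to choose the genes named. *Spp1* was at 209.7 ± 74.8 CPM (SD, n = 6 libraries) in Lymph-Col and 5.42 ± 8.15 CPM in Lymph-Cap cells, and this gene of the secreted phosphoprotein osteopontin was higher in 6 of 6 libraries. *Gdf10* was at 124 ± 58.0 CPM (SD, n = 6 libraries) in Lymph-Col and 2.32 ± 3.43 CPM in Lymph-Cap cells, higher in 6 of 6, and encodes a BMP family ligand. *Sbspon* was at 302 ± 101 CPM (SD, n = 6 libraries) in Lymph-Col and 20.0 ± 11.9 CPM in Lymph-Cap cells, and encodes a secreted matrix protein. For each of the 3, every Lymph-Col library lay above every Lymph-Cap library. *Fibin*, a secreted signalling protein, was at 489 ± 120.1 and 36.7 ± 28.6 CPM, and *Slc29a4*, a monoamine transporter, at 71.2 ± 37.8 and 2.32 ± 1.88 CPM. The transcription factor genes *Irx5*, *Zic2* and *Pou2f2* had log2 differences of 4.32, 3.95 and 4.06. *Coch* (4.45), *Apobec2* (4.33), *Pkp3* (3.88), which encodes a desmosomal plakophilin, and *Rragd* (3.86), a GTPase of amino-acid sensing, completed the 12 largest positive differences. All 12 were higher in 6 of 6 libraries.

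In the other direction, the pentraxin gene *Ptx3* was at 3.77 ± 2.87 CPM (SD, n = 6 libraries) in Lymph-Col and 106 ± 63.8 CPM in Lymph-Cap cells. *Piezo2* was at 11.3 ± 3.55 CPM (SD, n = 6 libraries) in Lymph-Col and 143 ± 37.6 CPM in Lymph-Cap cells, and encodes a mechanically gated channel. *Ackr2*, the decoy receptor for inflammatory chemokines, was at 5.99 ± 3.66 and 104 ± 21.1 CPM. All 3 were lower in 6 of 6 libraries. *Ccl21a*, the chemokine that draws dendritic cells into lymphatics, was at 1946 and 1109 CPM in telogen, 894 and 3835 CPM in anagen and 100.1 and 259.8 CPM in KO Lymph-Col cells, against 2800.1 to 31747 CPM in Lymph-Cap cells. Near-identical *Ccl21* copies share reads, so its level is uncertain. The imprinted non-coding RNA *H19* (-4.28), the anion transporter *Slco2b1* (-3.71), *Antxr2* (-3.7), *Tril* (-3.55), *Apba2* (-3.52), *Serpina3n* (-3.49) and *Ccn3* (-3.44) were also among the 12 largest negative log2 differences.

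Of 26 valve and collecting vessel genes measured, 18 had a higher level in Lymph-Col cells, with a median log2 difference of 0.31 against -0.02 over all 8187 genes. *Lama5*, the laminin α5 chain, was at 75.3 ± 17.4 against 7.64 ± 4.15 CPM, and *Fn1*, fibronectin, at 805 ± 282 against 172 ± 42.9 CPM. *Foxc1* (1.33), *Vangl2* (1.5) and *Celsr1* (1.21), the latter 2 being planar polarity genes, were higher in 6 of 6 libraries. Genes of the valve and collecting vessel list that were lower included *Myct1* (-1.73), *Fat4* (-1.06) and the connexin gene *Gja1* (-0.96). Most basement membrane and matrix genes lay lower: 18 of 24, *Lama5* and *Fn1* counted, had a negative difference, with a median of -0.83. Elastin *Eln* (-2.0), *Fbln5* (-1.76) and type IV collagen *Col4a1* (-1.41) were lower in 6 of 6. Of 14 capillary and immune trafficking genes, 13 were lower, with a median of -1.2. Immediate-early and heat-shock genes were mostly higher, 25 of 29 with a median of 0.69, as were 19 of 22 NF-kB targets with a median of 0.53. Oxidative phosphorylation genes were lower in 74 of 87, with a median of -0.27. The secreted vasodilator adrenomedullin *Adm* was at 309 ± 118 against 49.99 ± 24.8 CPM, while 10 of the 13 vasoactive genes were lower. Fibroblast markers were higher too, 4 of 4 with a median of 1.77, and their part in the matrix differences was not tested.

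**Figure D2:**
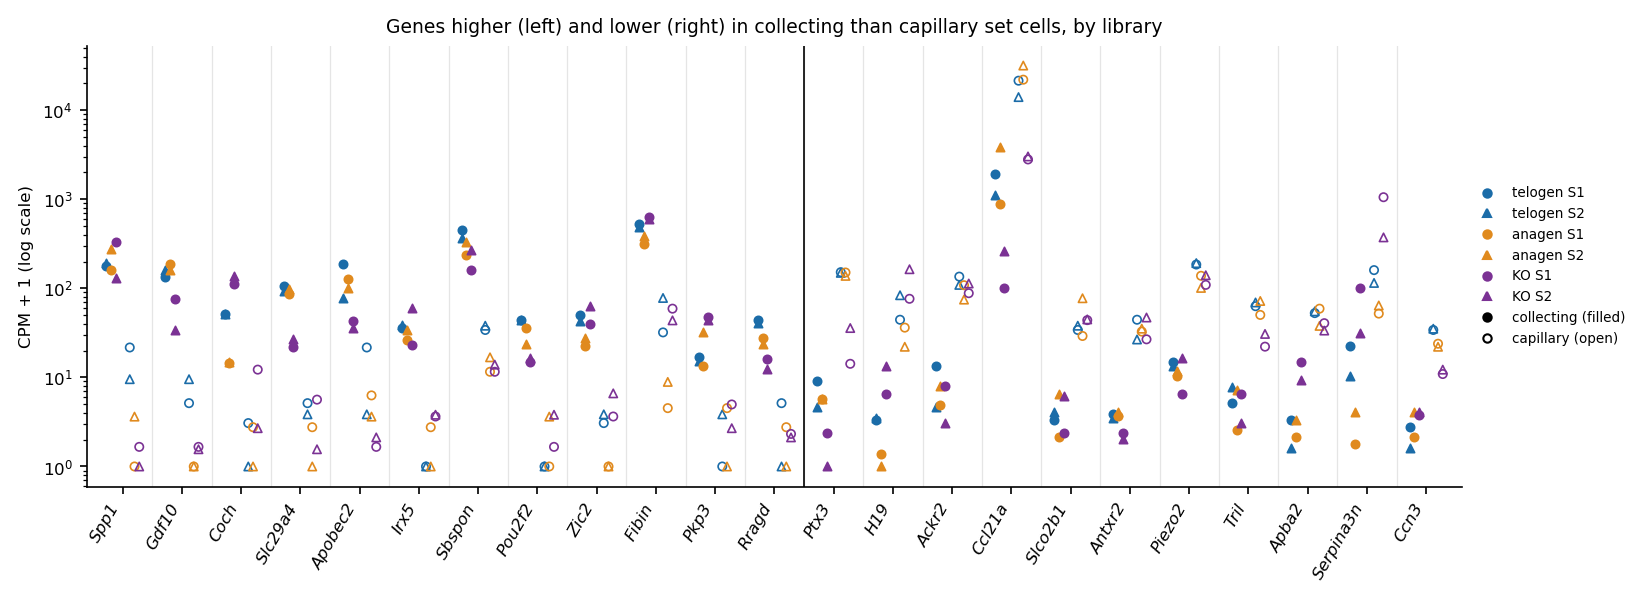
Levels of genes that differ most between Lymph-Col (filled) and Lymph-Cap (open) cells, in CPM on a logarithmic axis after adding 1, with 1 point per library; circles are S1 and triangles S2. For *Sbspon* and *Fibin* the 6 filled points lie above the 6 open ones, and for *Ptx3* and *Piezo2* below them.

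Valve ECs are known for *Foxc2*, so Lymph-Col cells were split by whether a cell thinned to 1500 UMIs held a *Foxc2* transcript, which 269 did and 1277 did not. At 17.4% the share lay above the 0.064% of Ptprc+ cells, but a cell without a transcript may still express the gene, so this split is a description with no test. *Gja4*, the connexin 37 gene of valve and arterial ECs and a gene of the arterial set, was at 387 ± 97.1 CPM in Foxc2+ and 155 ± 54.1 CPM in Foxc2- cells (SD, n = 6 libraries) and higher in Foxc2+ cells in 6 of 6. *Gdf10* was at 208 ± 74.5 CPM in Foxc2+ and 119.6 ± 58.2 CPM in Foxc2- cells, and *Sbspon* at 488 ± 151 CPM in Foxc2+ and 292 ± 120.03 CPM in Foxc2- cells, each higher in 6 of 6. *Cldn11*, *Nsg1* and *Prox1* were also higher in Foxc2+ cells in 6 of 6 libraries. *Odc1*, the rate-limiting enzyme of polyamine synthesis, ran the other way at 474 ± 373 CPM in Foxc2+ and 769.6 ± 449 CPM in Foxc2- cells, lower in 6 of 6, and so did *Cd24a* at 948 ± 159 CPM in Foxc2+ and 1174 ± 141 CPM in Foxc2- cells. *Nts* and *Gdf15* were lower in Foxc2+ cells in 5 of 6 libraries.

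Whether the share of Lymph-Col cells differed between groups was asked with 3 denominators. Lymph-Col cells were 23.02% and 23.7% of ECs in telogen, 12.6% and 7.58% in anagen and 10.1% and 12.8% in the KO libraries. The telogen mean of 23.4% ± 0.512 (SD, n = 2) lay above 10.1% ± 3.57 in anagen and 11.4% ± 1.93 in the KO, and neither group overlapped telogen. An exact two-sided permutation test gave p = 0.33 for each, the smallest that 2 mice against 2 allow. Of all filtered cells they were 7.41% ± 1.61 in telogen, 7.66% ± 2.81 in anagen (exact permutation p = 1.0) and 7.98% ± 1.21 in the KO (exact permutation p = 0.667), with overlapping libraries, so the difference depended on the denominator. Without the *Pecam1* requirement the denominator becomes every Ptprc- cell, ECs or not, and the anagen difference of -13.3 percentage points became -4.27 and the KO difference of -12.0 became -2.56. Of the cells that fell to any of the 6 sets, Lymph-Col cells were 27.9% and 29.6% in telogen, 15.8% and 9.39% in anagen and 13.3% and 17.2% in the KO libraries. Without the *Pecam1* requirement these shares were 26.3% and 28.2%, 18.9% and 11.7%, and 16.9% and 20.5%. Telogen lay above both other groups in either case.

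Of the Lymph-Col and Lymph-Cap cells together, Lymph-Col cells made up 75.5% and 78.4% in telogen, 81.1% and 78.4% in anagen and 31.7% and 35.6% in the KO libraries. Both KO libraries lay below all 4 WT libraries, with a mean difference to telogen of -43.3 percentage points (exact permutation p = 0.33). The genes of the rule themselves differed there: *Nts* and *Cldn11* were lower in both KO libraries, and in Lymph-Col cells *Lyve1* was at 83.4 and 75.3 CPM in the KO against at most 24.01 CPM in WT, so a change in cell numbers and a change in these levels cannot be told apart. Among cells with a *Prox1* transcript, a gene outside the rule, 255 of 391 and 268 of 414 were Lymph-Col in telogen (65.2% and 64.7%), 360 of 572 and 244 of 436 in anagen (62.9% and 56.0%), and 104 of 452 and 155 of 562 in the KO (23.01% and 27.6%). Lymph-Cap cells were 17.1% and 14.98%, 13.8% and 11.7%, and 48.9% and 46.1% of the same *Prox1*+ cells. The KO libraries were again apart from all WT libraries. Both labels still come from the set genes that differed there, so these shares are no separate check of cell numbers.

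**Figure D3:**
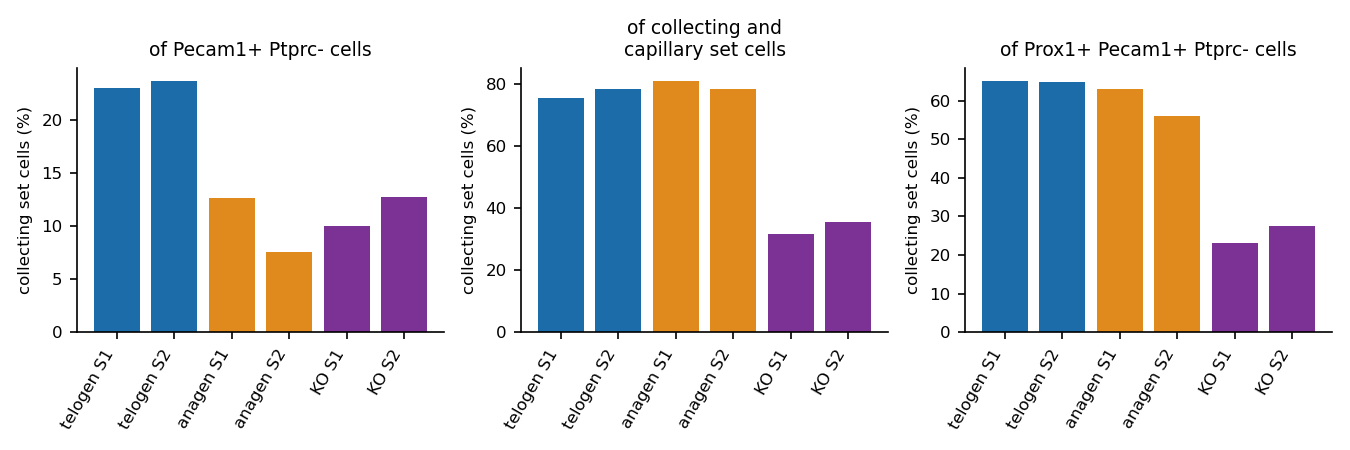
Share of Lymph-Col cells in each library, in percent, with 3 denominators and 1 bar per library. Of Lymph-Col plus Lymph-Cap cells, the KO libraries lie at 31.7% and 35.6% and the WT libraries between 75.5% and 81.1%.

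In anagen Lymph-Col cells, 15 of 82 genes of cytosolic ribosomal proteins and 9 of 91 subunits of oxidative phosphorylation were higher than in telogen, none of them with sex as a term, and 3 of 5 fibroblast and 4 of 7 immune markers were lower. A gene passed with a fold over 1.3 at an adjusted p under 0.05. Of 9260 genes tested, 58 did (0.626%), 47 higher (0.508%) and 11 lower (0.119%). In a fit of all 6 libraries without sex 43 passed, 33 higher and 10 lower. Many of the 58 lost their call without telogen S1, and many lost it without telogen S2. With a library left out the count ranged from 69 to 654, and it was 69 without telogen S2, which held the most fibroblast transcripts. With sex as a term 9 genes passed, all lower in anagen, and 4 of the 58 kept their call, *Kif21a*, *Col1a2*, *Col3a1* and *Col6a1*. None of the rises given below passed in that fit, in which *Slfn2* had a log2 fold change of 1.54 ± 0.26 SE, edgeR adjusted p = 0.0921. *Slfn2*, an interferon-inducible regulator of immune cell quiescence, was at 101 and 89.4 CPM in telogen and 227 and 245 CPM in anagen (log2 fold change 1.45 ± 0.17 SE, edgeR adjusted p = 0.0151). *Clu*, encoding the secreted chaperone clusterin, was at 135 and 147 CPM in telogen and 312 and 349 CPM in anagen (log2 fold change 1.36 ± 0.16 SE, edgeR adjusted p = 0.0151). For both genes the anagen libraries lay above the telogen libraries, and *Clu* was lowest of all in the KO libraries, at 115 and 30.9 CPM. *Scarb1*, the receptor for high-density lipoprotein, was at 7.03 and 8.01 CPM in telogen and 21.3 and 36.7 CPM in anagen (log2 fold change 2.02 ± 0.36 SE, edgeR adjusted p = 0.0447), a rise from a low level. In blood ECs *Scarb1* was at 447 and 453 CPM in telogen and 585 and 690.3 CPM in anagen and *Clu* at 425 and 515 CPM in telogen and 757 and 897 CPM in anagen, above the Lymph-Col levels. Blood endothelial marker transcripts rose in sum with them, as given above, and their part in both rises was not tested. *Bola2*, an iron-sulfur cluster protein, was at 29.9 and 29.6 CPM in telogen and 76.1 and 74.3 CPM in anagen (log2 fold change 1.48 ± 0.2 SE, edgeR adjusted p = 0.0221). *Slirp*, which binds mitochondrial RNA, was at 30.4 and 29.6 CPM in telogen and 72.2 and 68.02 CPM in anagen (log2 fold change 1.37 ± 0.2 SE, edgeR adjusted p = 0.0245). The telogen values of *Bola2* and *Slirp* agreed closely between mice. With sex as a term the log2 fold changes of *Clu* and *Bola2* stayed about as large, at 1.31 and 1.49.

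Of 82 cytosolic ribosomal protein genes measured, 15 rose and none fell, with a median log2 fold change of 0.5 against -0.003 over all genes, and 81 of 82 were positive. Their summed level was 102489.7 and 106339 CPM in telogen and 139903 and 142698 CPM in anagen. *Rps28* was at 571 and 785 CPM in telogen and 2376 and 1392 CPM in anagen (log2 fold change 1.63 ± 0.27 SE, edgeR adjusted p = 0.0365) and *Rpl41* at 1511 and 1673 CPM in telogen and 3613 and 3502 CPM in anagen (log2 fold change 1.3 ± 0.13 SE, edgeR adjusted p = 0.0133). *Rpl38* (1.6), *Rps21* (1.44) and *Rpl37* (1.42) followed in log2 fold change. Many of these genes have near-identical processed copies that can share reads, so single values are uncertain. In Lymph-Cap cells the sum of this list was 132703 and 126725 CPM in telogen and 172811 and 159855 CPM in anagen. In blood ECs it was 135250 and 135505 CPM in telogen and 166567 and 187680 CPM in anagen. The Lymph-Col cells of the KO libraries, also in telogen, held 156277 and 137926 CPM of this list. KO S1 lay above and KO S2 just below both anagen libraries. The number of the list that rose ran from 0 with sex as a term to 52 without anagen S1, while the median stayed between 0.47 and 0.54. The oxidative phosphorylation sum in Lymph-Cap cells was 18493 and 19543 CPM in telogen and 24390 and 23499 CPM in anagen. In blood ECs it was 19582 and 20086 CPM in telogen and 23656 and 21824 CPM in anagen. Of 91 oxidative phosphorylation genes in Lymph-Col cells, 9 rose and none fell, with a median of 0.44 and 87 positive. *Atp5mpl*, of ATP synthase, was at 111 and 115 CPM in telogen and 252 and 232 CPM in anagen (log2 fold change 1.25 ± 0.18 SE, edgeR adjusted p = 0.0224), and *Ndufa3*, of complex I, at 34.5 and 47.5 CPM in telogen and 118 and 88.3 CPM in anagen (log2 fold change 1.5 ± 0.25 SE, edgeR adjusted p = 0.0365). The number of this list that rose was 1 without telogen S1, 5 without telogen S2, 36 without anagen S1, 26 without anagen S2 and 0 with sex as a term, so the count turned on single libraries while the median stayed between 0.36 and 0.55.

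Of 16 genes of MHC class I and antigen processing, all 16 were positive, with a median of 0.8, and 1 passed the test, the immunoproteasome subunit *Psmb10* at 33.96 and 39.4 CPM in telogen and 80.3 and 68.8 CPM in anagen (log2 fold change 1.18 ± 0.21 SE, edgeR adjusted p = 0.0458). Their summed level was 3653 and 4725 CPM in telogen and 8824 and 4353 CPM in anagen, so anagen S2 lay within the telogen range. The median was 0.22 with 2 genes higher without anagen S1, and 1.2 with 13 higher without anagen S2. Interferon-response genes had a median of 0.48, with 21 of 26 positive and none called. Their direction turned on 1 library: without anagen S1 the median was -0.34 with 4 genes lower, and without anagen S2 it was 0.88 with 15 higher. Their sum was 4029 and 4816 CPM in telogen and 7009 and 5002 CPM in anagen. Of 24 NF-kB targets, 1 rose, *Nfkbia*, the inhibitor that closes the NF-kB feedback loop, at 2818 and 3192 CPM in telogen and 5584 and 5275 CPM in anagen (log2 fold change 0.99 ± 0.13 SE, edgeR adjusted p = 0.0221). *Plvap*, the diaphragm protein of fenestrae, was the 1 blood endothelial marker of 7 that passed, at 149 and 189 CPM in telogen and 282 and 329 CPM in anagen (log2 fold change 0.98 ± 0.18 SE, edgeR adjusted p = 0.0476). All 7 were positive, with a median of 0.98. *Prox1* did not pass (log2 fold change -0.55 ± 0.14 SE, edgeR adjusted p = 0.1357), and none of the 27 valve and collecting vessel genes passed in either direction, with up to 3 higher and up to 4 lower over the alternatives. *Kif21a*, a kinesin, fell and was at 62.7 and 72.1 CPM in telogen and 13.97 and 20.3 CPM in anagen (log2 fold change -1.88 ± 0.24 SE, edgeR adjusted p = 0.0193). *Coch*, the secreted protein cochlin, was at 50.4 and 49.9 CPM in telogen and 13.6 and 14.1 CPM in anagen (log2 fold change -1.71 ± 0.24 SE, edgeR adjusted p = 0.0224). For *Kif21a* the KO libraries stood far above both stages, at 416 and 449 CPM.

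Markers of other cells fell as well. Of 5 fibroblast markers tested 3 fell, with *Col1a2* at 147 and 476 CPM in telogen and 33.8 and 22.7 CPM in anagen (log2 fold change -3.27 ± 0.5 SE, edgeR adjusted p = 0.0299) and *Col3a1* at 211 and 694 CPM in telogen and 63.3 and 39.9 CPM in anagen (log2 fold change -2.95 ± 0.49 SE, edgeR adjusted p = 0.0365), and *Col1a1* at a log2 fold change of -2.66. *Col6a1*, a type VI collagen chain, had a log2 fold change of -3.14. Of 7 immune markers 4 fell, with *Pf4* at 42.7 and 22.8 CPM in telogen and 3.104 and 0.782 CPM in anagen (log2 fold change -3.65 ± 0.53 SE, edgeR adjusted p = 0.0224), *Lyz2* at a log2 fold change of -2.58, and *C1qa* and *C1qb*, complement genes of macrophages, with 3 counts each in anagen and telogen-to-anagen ratios of 20.1 (95% counting interval 6.5 to 100.5) and 24.3 (95% counting interval 7.95 to 121). The summed levels of both marker lists, given above, were highest in telogen, and their part in these falls was not tested. Of the genes in this paragraph only *Col1a2*, *Col3a1* and *Col6a1* kept their call with sex as a term. Over the alternatives 0 to 4 fibroblast and 0 to 6 immune markers were lower.

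No gene passed between stages in the lists of pan-lymphatic, capillary trafficking, VEGF-C, BMP, Notch, adhesion and chemokine, junction, vasoactive, matrix, Ly6, immediate-early, clock, cholesterol, glycolysis and cell-cycle genes. Their median log2 fold changes included 0.61 over 12 adhesion and chemokine genes, -0.04 over 21 BMP genes, -0.28 over 25 matrix genes and -0.31 over 24 cholesterol synthesis genes. These counts depended on the setting: over the alternatives, up to 11 immediate-early and heat-shock genes and 5 adhesion and chemokine genes were higher and up to 4 matrix genes lower, with at most 3 in either direction in each of the other lists named here. A list without calls at this sample size may still differ.

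**Figure D4:**
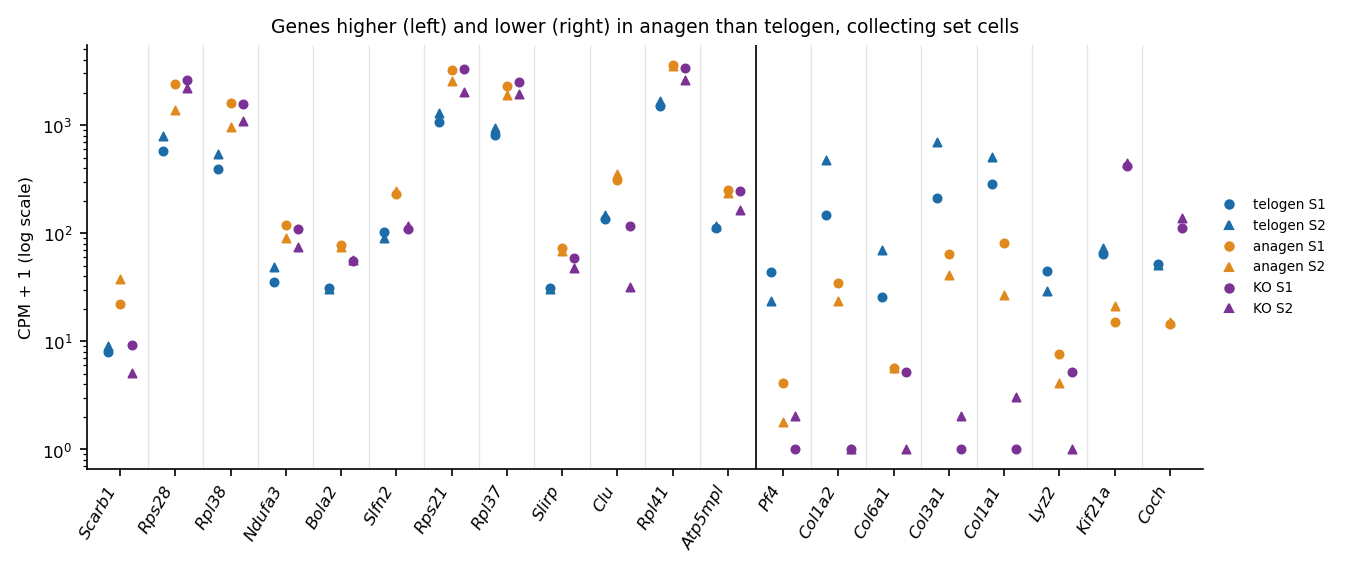
Levels of genes named in the anagen comparison in Lymph-Col cells of each library, in CPM on a logarithmic axis after adding 1; circles are S1 and triangles S2. *Slfn2* lies at 89.4 and 101 CPM in telogen and at 227 and 245 CPM in anagen, and *Kif21a* is lowest in anagen and highest in the KO libraries.

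*Acvrl1*, at chr15:101128522-101145336 on the plus strand of mm10, was at 68.5 and 59.8 CPM in telogen, 55.5 and 93.8 CPM in anagen and 86.2 and 50.5 CPM in the KO libraries (log2 fold change 0.05 ± 0.25 SE, edgeR adjusted p = 0.9283 against WT telogen). The 3 groups overlapped. The libraries count 3′ ends, and whether these lie in the deleted part is not given in the sources used here, so the count checks neither the deletion nor the labels. The KO libraries were compared with the same 2 WT telogen libraries as anagen was, so the 2 comparisons share their controls. The median mitochondrial share of Lymph-Col cells was 4.99% and 4.93% in WT telogen and 3.65% and 3.02% in the KO. All 5 markers were found in 29.9% and 39.1% of them in WT telogen and 20.5% and 23.7% in the KO. The part of these differences in the counts below was not tested. Of 8868 genes tested, 1088 passed (12.3%), 540 higher (6.09%) and 548 lower (6.18%). The median log2 fold change over all 8868 was 0.004. In a fit of all 6 libraries without sex 917 passed. The count was 529 by DESeq2 and 581 to 1330 with a library left out. With sex as a term 251 genes passed, 141 higher and 110 lower, and 245 of the 1088 kept their call. No called gene tested in that fit changed direction there, and the genes described below that lost their call there are named with their lists.

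Of 22 genes of the ALK1 receptor complex and BMP signalling, 5 were higher in the KO libraries and none lower, with a median log2 fold change of 0.04. *Smad7*, an inhibitory SMAD, was at 14.1 and 11.1 CPM in the WT telogen libraries and 61.2 and 64.9 CPM in the KO libraries (log2 fold change 2.3 ± 0.27 SE, edgeR adjusted p = 0.00036). *Id3*, a BMP target that blocks basic helix-loop-helix factors, was at 374 and 320.5 CPM in the WT telogen libraries and 1149 and 815 CPM in the KO libraries (log2 fold change 1.49 ± 0.2 SE, edgeR adjusted p = 0.00092). *Eng*, the co-receptor endoglin, was at 112 and 105 CPM in the WT telogen libraries and 268 and 299 CPM in the KO libraries (log2 fold change 1.37 ± 0.17 SE, edgeR adjusted p = 0.00062). None of the 3 overlapped between groups. *Smad6*, the other inhibitory SMAD, had 1 count in WT telogen and 25 in the KO, a ratio of 49.3 (95% counting interval 8.07 to 2023), and *Bmpr2*, the type II receptor, had a log2 fold change of 0.64. *Id1* was at 254 and 110.3 CPM in the WT telogen libraries and 503 and 276 CPM in the KO libraries and did not pass (log2 fold change 1.08 ± 0.35 SE, edgeR adjusted p = 0.0707). *Hamp*, which encodes hepcidin and is a known BMP target in liver, had 3 counts in WT telogen and 592 in the KO, a ratio of 389 (95% counting interval 132 to 1891). Of these only *Bmpr2* lost its call with sex as a term.

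Among 11 pan-lymphatic genes, 5 were higher and none lower, with a median log2 fold change of 0.34: *Cp* (1.74), *Sned1* (1.4), *Sox18* (1.19), *Tbx1* (0.77) and *Nr2f2* (0.7). *Sox18* and *Nr2f2* encode transcription factors that act with PROX1. *Prox1* itself did not pass (log2 fold change -0.27 ± 0.15 SE, edgeR adjusted p = 0.2855). Of 25 valve and collecting vessel genes, 2 were higher and 2 lower. *Itga9*, integrin α9, was at 227 and 309 CPM in the WT telogen libraries and 95.9 and 95.9 CPM in the KO libraries (log2 fold change -1.5 ± 0.21 SE, edgeR adjusted p = 0.00096). *Celsr1* was lower too (-0.9), and the semaphorin *Sema3a* (1.08) and the mechanosensitive channel *Piezo1* (0.91) were higher on the log2 scale. *Foxc2* did not pass (log2 fold change 0.46 ± 0.19 SE, edgeR adjusted p = 0.1382), and neither did *Gata2* (log2 fold change 0.55 ± 0.17 SE, edgeR adjusted p = 0.0577). The 4 valve genes that passed of 25 are a share near the 12.3% of all genes. Of 12 Notch genes none passed. *Sox18*, *Tbx1*, *Nr2f2*, *Celsr1*, *Sema3a* and *Piezo1* lost their calls with sex as a term.

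Of the chemokine and immune trafficking genes that passed, most were lower. *Ccl21a* was at 1946 and 1109 CPM in the WT telogen libraries and 100.1 and 259.8 CPM in the KO libraries (log2 fold change -3.09 ± 0.37 SE, edgeR adjusted p = 0.00037), uncertain because of its copies. Of 13 genes of its list 3 fell, *Cd274* (PD-L1), with 2 counts in the KO and a ratio of 10.4 (95% counting interval 2.7 to 88.8), and *Mrc1* (-2.24) being the others, and *Cxcl12* rose (1.93). Of 12 adhesion molecules and chemokines 6 fell, among them *Ccl7* (-2.72), *Cxcl2* (-1.6) and *Il33*, with 1 count in the KO and a ratio of 29.4 (95% counting interval 5.08 to 1182), and the leukocyte adhesion molecule *Icam1* rose (0.8). Interferon-response genes fell in 8 of 22 and rose in 1, with a median of -0.74, led by *Ifit1* (-2.21) and *Gbp4* (-2.04). Of 15 MHC class I genes 3 fell, including *H2-K1* (-1.41), which is polymorphic between strains. Immune markers in the same sums fell in 7 of 7, and their part in these falls was not tested. With sex as a term *Cd274*, *Mrc1*, *Cxcl2*, *Il33*, *Icam1*, *Ifit1*, *Gbp4* and *H2-K1* lost their calls, and the number of interferon-response genes that fell ran from 1 to 14 over the alternatives.

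Of 13 vasoactive genes 6 were higher and 1 lower, with a median of 0.64. Over the alternatives 2 to 7 were higher, and the median ran from 0.003 to 0.881. *Ptgs1*, the constitutive cyclooxygenase, was at 1.17 and 8.01 CPM in the WT telogen libraries and 82.0 and 52.6 CPM in the KO libraries (log2 fold change 3.83 ± 0.5 SE, edgeR adjusted p = 0.00074). *Npr3*, the natriuretic peptide clearance receptor, was at 3.51 and 8.01 CPM in the WT telogen libraries and 63.9 and 36.1 CPM in the KO libraries (log2 fold change 3.07 ± 0.45 SE, edgeR adjusted p = 0.0015). *Ace* (2.37), which makes angiotensin II, and *Ramp2* (1.28), part of the adrenomedullin receptor, also rose. All 4 were separate between groups. The blood endothelial marker sum rose with them, from 265 and 425 CPM in telogen to 1035 and 710.3 CPM in the KO. Its part in these rises was not tested. Of 23 basement membrane and matrix genes 7 fell and 2 rose, with a median of -0.36, with *Col4a1* at 254 and 306 CPM in the WT telogen libraries and 68.1 and 90.7 CPM in the KO libraries (log2 fold change -1.82 ± 0.2 SE, edgeR adjusted p = 0.00025), *Col18a1* at a log2 fold change of -1.96 and *Sparc* at -3.69, and the metalloproteinase inhibitor *Timp3* rose (1.35). Fibroblasts also express several matrix genes; the fibroblast marker sum was 737 and 2134 CPM in WT telogen and 2.78 and 15.5 CPM in the KO, and its part was not tested. Cholesterol synthesis genes fell in 5 of 22, including *Cyp51* (-2.16) and *Sqle* (-2.04), and in 1 to 7 over the alternatives. Ribosomal protein genes rose in 28 of 82, some of which share reads with near-identical copies, with a median of 0.38. Oxidative phosphorylation genes rose in 6 and fell in 4 of 89, together near the 12.3% of all genes that passed. *Ace*, *Ramp2*, *Cyp51* and *Sqle* lost their calls with sex as a term, and 10 ribosomal protein genes and no oxidative phosphorylation gene passed.

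The remaining lists are to be read against the 12.3% of all genes that passed. Of 29 immediate-early and heat-shock genes 3 rose and 5 fell, including the chaperone *Hspa1a* (-1.51) and the nuclear receptor *Nr4a1* (-1.14), while *Ier3* rose (1.27). Among 23 NF-kB targets 3 rose, led by the cytokine signalling inhibitor *Socs3* (1.07), and 4 fell. *Vegfa* fell (-0.72) and its receptor *Kdr* rose (0.72), the only calls among 6 VEGF-C and VEGFR3 genes tested. The hypoxia genes *Bnip3* (2.32) and *Epas1* (0.98) rose, and *Pgk1* of glycolysis fell (-1.16), with 3 higher and 4 lower of 22 in that list. Of 15 junction genes 2 fell, among them *Esam* (-0.87). *Stmn1*, a microtubule regulator of dividing cells, fell (-2.15) as 1 of 11 cell-cycle genes, and 2 clock genes rose and 1 fell of 16. Of 5 blood endothelial markers 2 rose, *Emcn* at 72.03 and 119 CPM in the WT telogen libraries and 685 and 489 CPM in the KO libraries (log2 fold change 2.61 ± 0.26 SE, edgeR adjusted p = 0.00013) and *Cd36* (1.63), and 2 fell, *Flt1* (-2.18) and *Cd34*, with 2 counts in the KO and a ratio of 11.2 (95% counting interval 2.91 to 95.05). The list's sum in Lymph-Col cells was 265 and 425 CPM in telogen and 1035 and 710.3 CPM in the KO, and its part in the rises was not tested. With sex as a term *Hspa1a*, *Nr4a1*, *Socs3*, *Vegfa*, *Kdr*, *Bnip3*, *Epas1*, *Esam*, *Flt1* and *Cd34* lost their calls.

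Among the genes with the largest rises, *Kcnk3*, a background potassium channel, was at 2.34 and 1.85 CPM in the WT telogen libraries and 50.03 and 80.4 CPM in the KO libraries (log2 fold change 4.89 ± 0.42 SE, edgeR adjusted p = 5.1e-05). *Klf15*, a glucocorticoid-responsive transcription factor, was at 0 and 2.46 CPM in the WT telogen libraries and 38.9 and 34.02 CPM in the KO libraries (log2 fold change 4.79 ± 0.64 SE, edgeR adjusted p = 0.00084). *Doc2b*, a calcium sensor of vesicle release, was at 2.34 and 0.616 CPM in the WT telogen libraries and 69.5 and 46.4 CPM in the KO libraries (log2 fold change 5.15 ± 0.51 SE, edgeR adjusted p = 0.0001). *Fmo2*, a flavin monooxygenase, was at 4.68 and 16.02 CPM in the WT telogen libraries and 224 and 146 CPM in the KO libraries (log2 fold change 4.14 ± 0.38 SE, edgeR adjusted p = 7.5e-05). For each of the 4, both KO libraries lay above both WT telogen libraries. In Lymph-Cap cells and in blood ECs the same held for *Klf15*, *Doc2b* and *Fmo2*. *Fmo2* was at 25.0 and 41.0 CPM in WT telogen and 432 and 361 CPM in the KO in blood ECs. *Kcnk3* was at 1.67 and 3.6 CPM in WT telogen and 0 and 0 CPM in the KO in blood ECs. *Slc15a2*, a peptide transporter, had 0 counts in WT telogen and 74 in the KO, at least 48.6-fold higher against a floor of 3 counts over the group. In WT anagen it was at 24.1 CPM in S1, between the KO values of 19.5 and 61.9 CPM, and at 0 in S2, and in blood ECs it was likewise above 0 in anagen S1 and both KO libraries alone. *Abcc3* and *Galnt15* had 3 counts each in WT telogen and ratios of 47.3 (95% counting interval 15.6 to 235) and 24.97 (95% counting interval 7.92 to 126). *Setdb2* (4.0), *Ccdc152* (3.79) and *Phf11c* (3.7) followed on the log2 scale. *Slc15a2*, *Galnt15* and *Phf11c* lost their calls with sex as a term.

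Markers of fibroblasts and macrophages were among the largest falls. All 5 fibroblast markers tested fell, with a median log2 fold change of -8.28, or -7.44 with genes at 0 set at their bound. *Col1a2* had 1024 counts in WT telogen and 0 in the KO, at least 173-fold lower, and *Mfap5* and *Lum* were at least 35.5-fold and 12.7-fold lower. *Col3a1* and *Col1a1* had 1 and 2 counts in the KO, with ratios of 754 (95% counting interval 135 to 29818) and 329.8 (95% counting interval 91.1 to 2726). *Igfbp6*, with 3 counts in the KO, had a ratio of 141 (95% counting interval 47.9 to 683). *Col6a3*, with 1 count, had a ratio of 49.7 (95% counting interval 8.72 to 1984). *Angptl2*, a secreted angiopoietin-like protein, also had 1 count and a ratio of 65.95 (95% counting interval 11.6 to 2625). It was at 50.4 and 27.1 CPM in telogen and 36.9 and 37.5 CPM in anagen, and the part of fibroblast transcripts in its fall was not tested. The proteoglycan *Dcn* was at 73.2 and 423 CPM in the WT telogen libraries and 2.78 and 11.3 CPM in the KO libraries (log2 fold change -5.03 ± 0.85 SE, edgeR adjusted p = 0.0031). All 7 immune markers tested fell, with a median of -5.59, or -3.68 with bounds. Over the alternatives 1 to 7 were lower, and the median ran from -7.495 to -2.865. *Fcer1g* and the monocyte chemokine *Ccl8* were at least 12.8-fold and 11.3-fold lower, and *Pf4* had a ratio of 55.8 (95% counting interval 9.81 to 2224). With sex as a term *Lum* and *Col6a3* lost their calls.

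**Figure D5:**
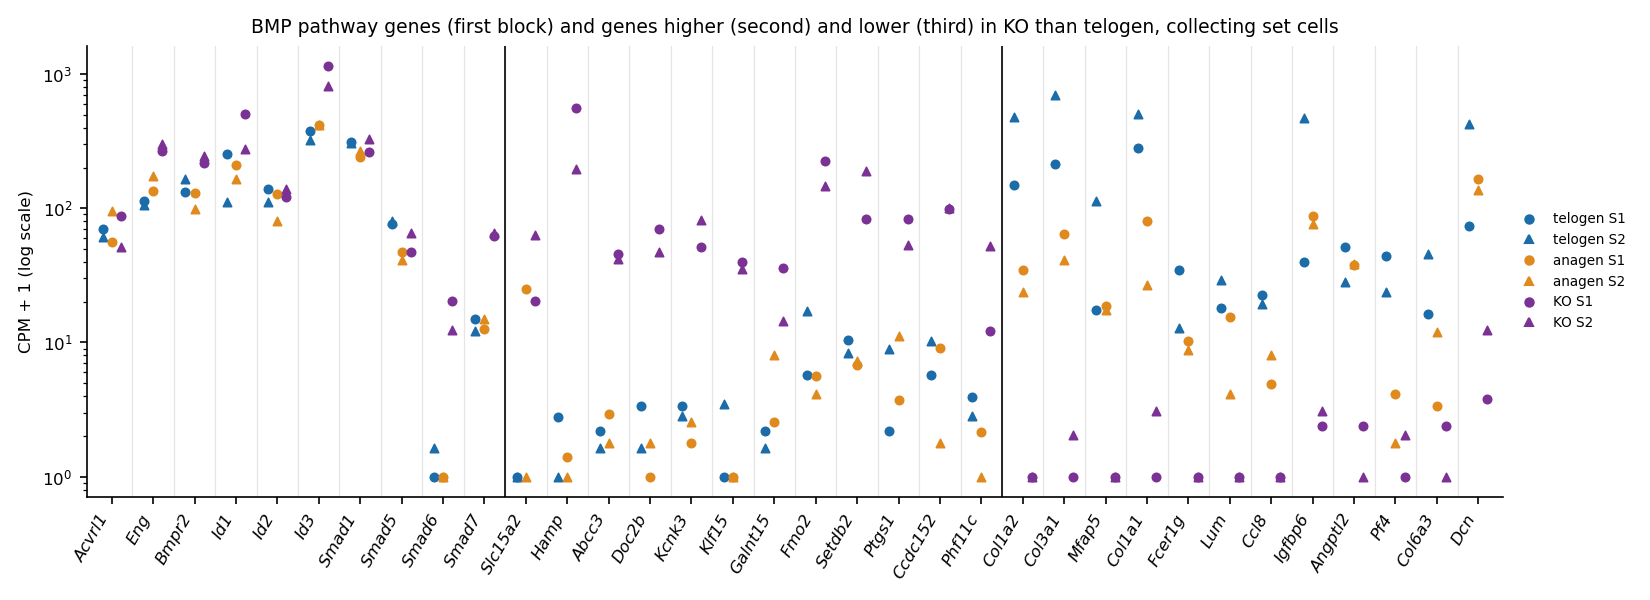
Levels of genes named in the KO comparison in Lymph-Col cells of each library, in CPM on a logarithmic axis after adding 1; circles are S1 and triangles S2. *Smad7* and *Id3* lie higher in both KO libraries than in both WT telogen libraries, and *Col1a1* lies lower, while the *Acvrl1* levels of the groups overlap.

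Whether Lymph-Col cells changed differently from other ECs was tested as an interaction, on the difference between the 2 classes' log2 fold changes. Between stages, 3 of 8663 genes differed from Lymph-Cap cells (0.0346%), *Cxcl2*, *Rgs5* and the predicted gene *Gm13889*, the last of which lies outside the naming rule and was chosen after its values were seen. *Cxcl2*, a neutrophil chemokine, was at 426 and 1167 CPM in telogen and 1412 and 947 CPM in anagen in Lymph-Col cells and at 277 and 342 CPM in telogen and 31.7 and 31.6 CPM in anagen in Lymph-Cap cells (difference 4.08 ± 0.38 SE, edgeR adjusted p = 3.5e-06). Its Lymph-Col libraries overlapped between stages, and those of Lymph-Cap cells did not. In Ptprc+ cells *Cxcl2* averaged 8286 CPM, and the part of their transcripts in this difference was not tested. *Rgs5*, a pericyte gene, was at 1.76 and 8.01 CPM in telogen and 1.16 and 83.7 CPM in anagen in Lymph-Col and 0 and 188 CPM in telogen and 0 and 2.63 CPM in anagen in Lymph-Cap cells. It rested on 1 library in each class. With a library left out, 2 to 48 genes passed, and 382 had an unadjusted p under 0.05.

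Against the summed blood ECs, 17 of 11926 genes differed between stages (0.143%). Of these, 16 had a more positive change in Lymph-Col cells (0.134%) and 1 a more negative one (0.00839%). The count rose whichever library was left out, as given under the processing. *Igfbp5* was at 1110.3 and 976 CPM in telogen and 817 and 561 CPM in anagen in Lymph-Col and 122 and 146 CPM in telogen and 30.7 and 13.6 CPM in anagen in blood ECs (difference 2.08 ± 0.23 SE, edgeR adjusted p = 0.0037). *Dbp*, a clock output gene, was that 1, at 16.4 and 14.8 CPM in telogen and 16.3 and 18.8 CPM in anagen against 7.51 and 6.23 CPM in telogen and 31.7 and 28.4 CPM in anagen in blood ECs (difference -1.96 ± 0.34 SE, edgeR adjusted p = 0.0473). Pericyte and smooth muscle markers in the blood EC sums were at 1326 and 1348 CPM in telogen and 435 and 313 CPM in anagen. Fibroblast markers there were at 1554 and 2058 CPM in telogen and 479 and 881 CPM in anagen. Schwann markers were at 102 and 50.1 CPM in telogen and 35.3 and 2.19 CPM in anagen. The arterial, venous and further blood sets held 111, 97, 198 and 205 cells in telogen S1 and 597, 574, 458 and 1089 in anagen S2. The part of these markers and of this mix in the differences was not tested.

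Between KO and WT telogen, 49 of 9736 genes changed differently from Lymph-Cap cells (0.503%), 37 more positively in Lymph-Col cells (0.38%) and 12 more negatively (0.123%). With a library left out, 8 to 56 passed. *Ccnd1*, cyclin D1, was at 9.95 and 26.5 CPM in WT telogen and 11.1 and 12.4 CPM in the KO in Lymph-Col cells and at 151 and 228 CPM in WT telogen and 13.9 and 10.1 CPM in the KO in Lymph-Cap cells (difference 3.42 ± 0.54 SE, edgeR adjusted p = 0.0024). *Isg15*, an interferon-induced modifier, was at 314 and 359 CPM in WT telogen and 179 and 228 CPM in the KO and at 738 and 573 CPM in WT telogen and 70.05 and 79.8 CPM in the KO in the same order (difference 2.4 ± 0.25 SE, edgeR adjusted p = 8e-05). *Igf1*, insulin-like growth factor 1, was at 80.8 and 126 CPM in WT telogen and 4.17 and 3.09 CPM in the KO in Lymph-Col and 55.8 and 79.8 CPM in WT telogen and 27.8 and 40.4 CPM in the KO in Lymph-Cap cells (difference -3.85 ± 0.47 SE, edgeR adjusted p = 0.00043). For *Ccnd1* the level moved in Lymph-Cap cells, and for *Igf1* mainly in Lymph-Col cells. Fibroblast markers moved with *Igf1*: their sum went from 737 and 2134 CPM to 2.78 and 15.5 CPM in Lymph-Col and from 376 and 359 CPM to 29.7 and 8.99 CPM in Lymph-Cap cells, and the 5 tested had a median difference of -3.79. Their part in the *Igf1* difference was not tested. The interactions were not fitted with sex.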

How the data were processed

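The deposited files hold raw counts of UMIs for 32285 genes, counted by the authors with Cell Ranger 6.0.1 against mm10 in Chromium 3′ v3 libraries of tdTomato+ cells sorted from dissociated back skin. Per the labels Seurat 4.0 was used afterwards, and none of its filtering or integration is in the counts. Libraries held 32626434 and 43317677 UMIs in telogen, 35035677 and 29851591 in anagen, and 10615358 and 11239445 in the KO, and every barcode held at least 500.

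The members and gene lists were chosen with earlier results of these data known. Counts were summed per library over member cells, filtered with filterByExpr, scaled with TMM and tested by edgeR's quasi-likelihood method, with p-values adjusted by Benjamini-Hochberg across every tested gene and without the 30 set genes in counts of calls. Comparisons of classes had the library as a block, and differences in response were tested as interactions. The p-values measure the spread between 2 mice per group. Named genes were up to 12 with the largest rise and 12 with the largest fall per comparison, among calls without overlap of the libraries and with a mean of at least 20 CPM, without predicted genes, haemoglobins and sex-linked genes; a few genes that this picked are not reported here. In the interactions, levels within a class could overlap between groups, as those of *Rgs5* did. Genes fixed by name and up to 4 calls per list were added. Further genes of a list were named after their values were seen. Summed levels of a list include genes too low to test. Fold bounds rest on a floor of 3 counts over a group, and 95% intervals on exact Poisson or binomial counting error alone.

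Alternatives were no filter or fold threshold, DESeq2, a stricter cell filter (500 genes, 5% mitochondrial), no *Pecam1* requirement, a score of at least 3, thinning to 1500 UMIs, removal of the 5% highest Scrublet scores per library, a replicate block and leaving out each library, and, added after the data were seen, sex (from *Xist* and *Ddx3y*) as a term in a fit of all 6 libraries. A fit of all 6 libraries without sex was a further alternative. Deviations of same-numbered libraries did not correlate (r = -0.008 and 0.013 over 9531 genes). The deviation in telogen is also that between a female and a male, so this check cannot exclude that the numbers pair mice. On simulated data with 200 changed genes, 38% of 2-fold and 91% of 4-fold changes were recovered between stages over 9284 genes, and 36% and 84% for the KO over 8892, with 9 and 4 false calls. Tools were R 4.3.3 (DESeq2 1.42.0, edgeR 4.0.16, limma 3.58.1) and Python 3.11.15 (scanpy 1.11.5, pandas 2.3.3, scipy 1.17.1, matplotlib 3.10.9, numpy 2.4.6).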

Additional observations from a re-analysis of the deposited data

Results flagged for a closer look

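In tests of the difference itself, Lymph-Col cells changed between stages unlike Lymph-Cap cells in 3 genes, among them *Cxcl2* with a log2 difference of 4.08 and *Rgs5* with 8.89, whose edgeR adjusted p of 7.2e-05 rose to at most 0.9998 in the alternatives. Without filter on low counts this was 32 genes, and by DESeq2 it was 1. They changed unlike blood ECs in 17 genes. *Tmem45a* (2.85 ± 0.4 SE) was at 56.8 and 69.03 CPM in telogen and 49.7 and 65.7 CPM in anagen in Lymph-Col and 3.96 and 4.79 CPM in telogen and 0.44 and 0.65 CPM in anagen in blood ECs, and *Rgs7bp* (2.53 ± 0.39 SE) at 48.02 and 58.5 CPM in telogen and 35.3 and 39.1 CPM in anagen and 17.5 and 11.8 CPM in telogen and 2.27 and 1.23 CPM in anagen. *Gucy1b1*, a subunit of the nitric oxide receptor, had a log2 difference of 2.25 ± 0.37 SE, and *Dbp* one of -1.96 ± 0.34 SE.

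Between KO and WT telogen, 49 genes changed unlike Lymph-Cap cells. *Spp1* (5.5 ± 0.86 SE) was at 179 and 191 CPM in WT telogen and 327 and 129 CPM in the KO in Lymph-Col cells and at 20.7 and 8.55 CPM in WT telogen and 0.66 and 0 CPM in the KO in Lymph-Cap cells. Its Lymph-Col libraries overlapped between genotypes. The size of the *Spp1* difference rests on Lymph-Cap levels at or near 0 in the KO and is uncertain. *Ccnd1* had a log2 difference of 3.42 ± 0.54 SE, *Igf1* of -3.85 ± 0.47 SE and *Apod* of -3.14 ± 0.7 SE. *Apod* was at 32.8 and 76.4 CPM in WT telogen Lymph-Col cells and at 321 CPM in KO S1, with KO S2 inside the WT range, against 20.7 and 45.6 CPM in WT telogen and 739.5 and 776 CPM in the KO in Lymph-Cap cells. It lost its call in 4 of 7 alternatives, with an adjusted p of up to 0.9854 by DESeq2. Without KO S1 the log2 difference was -4.89 and without KO S2 -1.91, both past the threshold. *Spp1* lost it in 2 and *Ccnd1* in 1 of 7.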

How the results depend on the processing

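The anagen count of 58 genes became 485 without filter on low counts, 133 by DESeq2, 36 with cells of at least 500 genes and under 5% mitochondrial UMIs, and 438 with the replicate block, 9 with sex as a term, and ranged from 69 to 654 when a library was left out (81 without telogen S1, 69 without telogen S2, 654 without anagen S1, 559 without anagen S2). The KO count of 1088 was 529 by DESeq2, 557 after thinning, 251 with sex as a term and 1041 with the replicate block, and 581 to 1330 with a library left out (581 without telogen S1, 680 without telogen S2, 1330 without KO S1, 1325 without KO S2). Against Lymph-Cap cells, where the threshold only chose the genes to describe, 1869 of 8187 genes (22.8%) were past it, 913 after thinning and 1471 to 1951 with a library left out. The stage interaction with Lymph-Cap cells gave 3 genes, 32 without filter, 1 by DESeq2 and 2 to 48 with a library left out. That with blood ECs gave 17, 113 without filter and 34 to 108. The KO interaction gave 49, 133 without filter, 18 by DESeq2 and 8 to 56.

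The KO difference in the share of filtered cells was 0.573 percentage points, 2.23 under the stricter cell filter and -0.567 to 1.71 with a library left out. For anagen it was 0.258, and -1.73 to 2.24 with a library left out. Of ECs, the anagen difference was -15.8 to -10.8 with a library left out, and the KO difference was -9.55 with cells thinned before the choice, and -13.3 to -10.6. Of all Ptprc- cells, without the *Pecam1* requirement, they were -4.27 and -2.56. Of Lymph-Col plus Lymph-Cap cells, the anagen difference of 2.77 was 5.62 under the stricter filter, 6.01 without *Pecam1* and 1.32 to 4.23. The KO difference was -39.2, -38.6 and -45.3 to -41.3. Both differences in the share of filtered cells took either sign, as did the median log2 fold changes of interferon-response genes in anagen (-0.338 to 0.882) and of BMP genes in anagen (-0.173 to 0.097) and the KO (-0.063 to 0.176), and those of other lists whose medians are not given. No gene named by the rule changed direction. Of these genes, 1 of 20 (anagen), 18 of 24 (KO) and 24 of 24 (Lymph-Cap) stayed past the threshold in every alternative that gave a value, and 1 of 2, 9 of 13 and 2 of 24 of the interactions. The sex term leaves 1 telogen library for each contrast; the other causes were not tested.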

Other observations

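The following genes were chosen after their values were seen. In KO Lymph-Col cells *Tsc22d3*, which encodes the glucocorticoid-induced protein GILZ, was at 47.4 and 91.8 CPM in the WT telogen libraries and 507 and 467 CPM in the KO libraries (log2 fold change 2.79 ± 0.27 SE, edgeR adjusted p = 9.5e-05), and *Fkbp5*, a chaperone of the glucocorticoid receptor, at 4.68 and 18.5 CPM in the WT telogen libraries and 61.2 and 56.7 CPM in the KO libraries (log2 fold change 2.33 ± 0.43 SE, edgeR adjusted p = 0.0050). *Zbtb16* had a log2 fold change of 2.29. The metallothioneins *Mt1* (2.75) and *Mt2* (3.35) and the iron-binding protein gene *Lcn2* (3.26) were also higher. The WT telogen libraries served as controls here too.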
